A study of Mus musculus with 2 samples.

Results

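Oxidative phosphorylation is carried out by 5 protein complexes of the inner mitochondrial membrane and by the mobile carrier cytochrome c. Complexes I and II take electrons from NADH and succinate, complex III passes them to cytochrome c, complex IV hands them to oxygen, and complex V, the ATP synthase, uses the proton gradient that the others build. The nuclear genome encodes most subunits, while the mitochondrial genome encodes a few hydrophobic core subunits of complexes I, III, IV and V, so that each of these is assembled from the products of both genomes. The heart depends on this pathway, and striated muscle replaces several complex IV subunits by isoforms of its own.

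The genes described here were taken by symbol from the feature list that both matrices share. They comprise the Nduf genes of the a, b, c, s and v series, Cox4 to Cox8, Atp5, Uqcr, Sdha to Sdhd, Cycs and the mitochondrially encoded mt-Nd, mt-Co, mt-Cytb and mt-Atp genes. The rule found 99 of 32285 features, of which 86 are nuclear and 13 mitochondrial (mt-). Of the nuclear genes, 36 belong to complex I, 4 to complex II, 8 to complex III, 1 is cytochrome c, 18 belong to complex IV and 17 to complex V. The other 2 are Cox7a2l, known for joining complexes III and IV into supercomplexes, and Ndufa4l2, a relative of Ndufa4. Ndufa4, named as a complex I gene, was placed in complex IV, where its protein is now assigned.

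The study compared Zbtb16 knockout cells with wild-type control (Ctrl) cells of the mouse embryonic stem cell line D3 on day 6 of cardiomyocyte differentiation, the cardiovascular progenitor stage, and asked which cell population Zbtb16 acts on. Zbtb16 encodes a zinc finger transcription factor. Each group is 1 droplet single-cell RNA library, both groups had the same differentiation treatment, and the sources used here do not say how many knockout clones were used. With 1 library a group no difference between them can be tested, and intervals below are 95% exact intervals that cover counting error only.

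Barcodes with at least 15000 UMIs (unique molecular identifiers, here counted transcripts) and at most 10% mt- UMIs were kept as cells. This left 9449 knockout and 6354 Ctrl cells, at median depths of 30513 UMIs in the knockout and 37324 UMIs in Ctrl, and 16 barcode sequences occur in both. The mt- limit removed 50 knockout and 24 Ctrl barcodes. Since the only mt- features in the files are the 13 genes described here, it is a limit on them: 37 knockout and 23 Ctrl cells lay at 9 to 10%, and 21 knockout and 10 Ctrl barcodes at 10 to 11%. Zbtb16 itself had 0.99 CPM (UMIs of a gene scaled to 1 common total of all UMIs) in knockout and 22.2 CPM in Ctrl cells. The summed level of 10 cardiomyocyte markers was 194 CPM in knockout and 2379 CPM in Ctrl cells, and all 9 of these that were measured were lower in the knockout. Mesenchymal markers summed to 1089 CPM in knockout against 758 CPM in Ctrl cells, pluripotency markers to 139 against 65.4 CPM, and erythroid globins to 147 against 0.0649 CPM, with Hbb-bh1 at 0 in Ctrl. The makeup of the libraries therefore differs together with genotype, and the part of cell makeup in the differences below is addressed only by the values given for narrower sets of cells.

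Some letters known from promoters of respiratory genes were counted in the promoters of the nuclear genes, which the choice by symbol did not use. Promoter windows of 300 bases (250 before to 50 after the start, RefSeq, assembly GRCm38.p6) were found for 70 of the 86 nuclear genes, in 75 windows. The site of NRF1, a transcription factor known for its sites in respiratory chain genes, was searched as GCGCANGCGC on both strands. It occurred in 24% of the 75 windows (18 windows of 17 genes) and in 4.60% of all 32851 windows. YY1, spelled AAGATGGCG, was found in 9.33% of the windows of these genes against 1.40% of all, the ETS site CCGGAAGT that GABP binds in 6.67% against 3.89%, and the ERR site TCAAGGTCA in 2.67% against 0.423%. The SP1 box GGGGCGGGG was about as frequent as elsewhere, at 14.7% against 11.4%. For the muscle factor MEF2 only the loose spelling CTANNNNTAG was searched, which stood in 1.33% against 3.69%. Its middle letters may be any base, while those of the MEF2 site are A or T. The only match in these genes, in Cox5b, has a C among them, so these shares are not shares of MEF2 sites. Of the 75 windows, 7 matched YY1, 5 the ETS site, 2 ERR, 11 SP1 and 1 the loose spelling, so the smallest shares rest on very few windows. Each motif was searched on its own, so that overlapping matches count for each. These are matches of letters and do not show that a factor binds.

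The windows below are shown because they cover the range of the knockout values: Atp5k, the complex V gene furthest below Ctrl, Sdha, the only measured nuclear gene above Ctrl, and Cox6a1 and Cox7a1, a common complex IV subunit that was level along the cardiomyocyte marker Actc1 in Ctrl cells (213 CPM in Actc1-high cells and 212 CPM in those without Actc1) and a muscle isoform of another subunit that was not level. Capitals mark matches to the NRF1 letters on either strand. Atp5k (chr5:108434350-108434649, minus strand) holds 1, Sdha (chr13:74350191-74350490, minus strand) holds 3, Cox6a1 (chr5:115348909-115349208, minus strand) holds 2, and Cox7a1 (chr7:30183921-30184220, plus strand) holds none.
Atp5k: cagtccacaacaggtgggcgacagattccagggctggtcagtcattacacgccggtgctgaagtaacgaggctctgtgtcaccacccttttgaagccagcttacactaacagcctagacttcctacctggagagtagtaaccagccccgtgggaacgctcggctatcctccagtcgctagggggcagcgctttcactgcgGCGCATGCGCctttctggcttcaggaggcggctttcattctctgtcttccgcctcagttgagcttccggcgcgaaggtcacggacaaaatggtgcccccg
Sdha: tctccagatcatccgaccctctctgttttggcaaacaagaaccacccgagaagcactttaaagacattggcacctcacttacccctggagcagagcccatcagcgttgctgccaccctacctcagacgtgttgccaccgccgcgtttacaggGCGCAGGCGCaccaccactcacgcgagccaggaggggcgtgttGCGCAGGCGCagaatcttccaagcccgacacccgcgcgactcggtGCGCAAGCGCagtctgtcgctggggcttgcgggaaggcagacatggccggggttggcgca
Cox6a1: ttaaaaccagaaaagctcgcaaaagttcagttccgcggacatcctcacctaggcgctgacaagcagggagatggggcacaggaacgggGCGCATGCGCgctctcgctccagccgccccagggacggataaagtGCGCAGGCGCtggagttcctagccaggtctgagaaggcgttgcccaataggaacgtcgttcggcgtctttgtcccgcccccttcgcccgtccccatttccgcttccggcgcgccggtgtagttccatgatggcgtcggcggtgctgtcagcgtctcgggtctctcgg
Cox7a1: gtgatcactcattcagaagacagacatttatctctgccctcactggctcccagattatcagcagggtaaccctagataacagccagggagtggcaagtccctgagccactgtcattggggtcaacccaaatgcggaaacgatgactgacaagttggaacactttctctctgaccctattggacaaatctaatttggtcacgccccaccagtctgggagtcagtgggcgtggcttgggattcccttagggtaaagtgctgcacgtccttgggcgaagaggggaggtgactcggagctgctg

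Nuclear and mitochondrial genes of the pathway differed from Ctrl in opposite directions in the knockout library. The 86 nuclear genes together made up 1.90% of UMIs in knockout cells and 2.38% in Ctrl cells, whereas the 13 mt- genes made up 5.00% in knockout and 4.22% in Ctrl cells. The ratio of mt- to nuclear UMIs of the pathway was 2.63 in knockout and 1.78 in Ctrl cells. Cell by cell, the nuclear share ran from 1.65% at the 10th percentile to 2.19% at the 90th in knockout cells, with a median of 1.90%, and from 2.03% to 2.76% in Ctrl cells, with a median of 2.38%. The distributions thus overlap only in their tails. The mt- share overlapped more, with a median of 5.02% (quartiles 4.45% and 5.68%) in knockout cells and 4.22% (quartiles 3.72% and 4.83%) in Ctrl cells.

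Ratios of single genes are given as log2 of (knockout CPM + 1) over (Ctrl CPM + 1), for genes with a mean of at least 5 CPM over both libraries, here called measured. Of the 86 nuclear genes 81 were measured. The others, Cox6a2, Cox8b, Cox8c, Cox7b2 and Ndufa4l2, are isoforms of restricted tissue range and had at most 3.77 CPM in either library. The median of the 81 was -0.35, against 0.02 over all measured genes, and 80 of them lay below 0. At least 1.5-fold lower were 11 of 81 and at least 1.5-fold higher 0, against 6.10% lower and 12.3% higher among all 9977 measured genes. Of other genes of like length 9.53% were as much lower and 3.54% as much higher, so the count of lower genes, 11 of 81, stands near that background, and the shared small shift of nearly all of them describes the set better.

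Transcript length matters because knockout ratios followed it across the whole transcriptome. Other genes in the lowest length decile had a median ratio of -0.23 and those in the highest decile one of 0.39, and the nuclear genes of the pathway are short, with a median of 861 bases for the longest coding transcript. For each, the median ratio of the 300 measured genes nearest in length was subtracted. These length neighbours had a median of -0.22 over the 81 genes, the median after subtraction was -0.14, and 65 of 81 were then below 0. At least 1.5-fold lower after subtraction were 4 of 81 and higher 0, against 6.38% lower and 7.50% higher among all measured genes treated the same way. These 4 were Cox7a1 (-2.02), Cox4i2 (-0.67), Ndufb2 (-0.66) and Cycs (-0.61), and the highest adjusted value was that of Ndufa8 (0.17). The length of Ndufb2 is that of an annotated long form of 4371 bases, and which form was captured is not known.

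**Figure D1:**
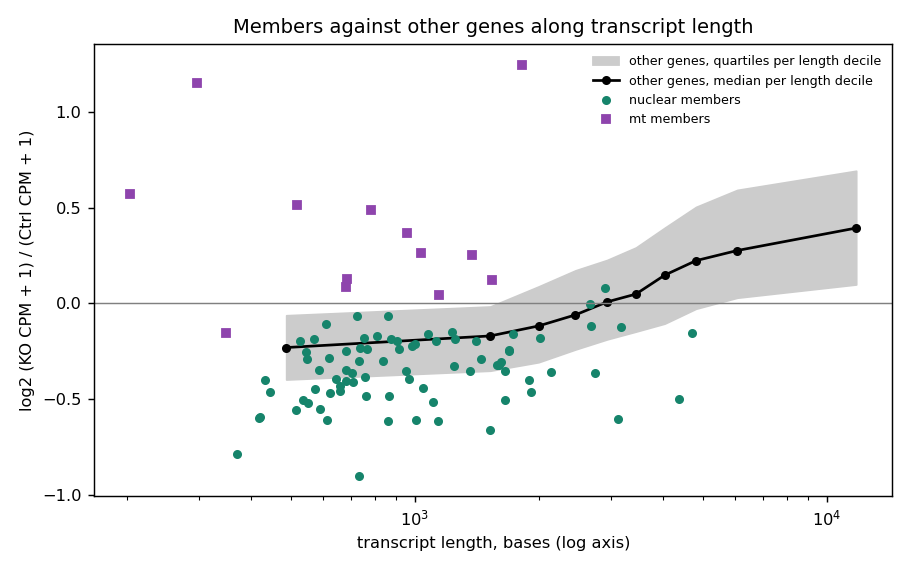
Each point is a measured gene of the pathway, by transcript length in bases (log axis) and log2 ratio of knockout to Ctrl in all kept cells, with the median and quartiles of other genes per length decile; Cox7a1, at -2.28, lies below the plotted range and is not drawn. Most nuclear genes sit below the line of other genes of their length, and all 13 mt- genes sit above it.

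In complex I, the NADH dehydrogenase, all 36 nuclear genes lay below 0 with a median of -0.34. Ndufa7, an accessory subunit with the most UMIs in this complex, had 365 CPM in knockout and 419 CPM in Ctrl cells (-0.20), and Ndufb8, an accessory subunit of the membrane arm, had 278 CPM in knockout against 357 CPM in Ctrl cells (-0.36). The gene listed as Ndufb1-ps, a small subunit of the membrane arm whose symbol carries a pseudogene suffix, was furthest below, with 117 CPM in knockout and 179.8 CPM in Ctrl cells (-0.62). Ndufs8, a core subunit that carries iron-sulfur clusters, followed with 38.3 CPM in knockout and 59.0 CPM in Ctrl cells (-0.61). At the other end, Ndufs1, the largest iron-sulfur subunit, had 58.3 CPM in knockout and 58.5 CPM in Ctrl cells, and the interval of this ratio spans 0 (-0.03 to 0.03). Core subunits thus stood near both ends of the complex.

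In complex II, which also belongs to the citrate cycle and has no mitochondrially encoded subunit, the median of the 4 genes was -0.14. Sdhb, the iron-sulfur subunit, was the lowest, with 73.0 CPM in knockout and 112 CPM in Ctrl cells (-0.61, interval of the ratio -0.64 to -0.60). The membrane anchors Sdhd, with 133 CPM in knockout against 147 CPM in Ctrl cells (-0.15), and Sdhc, with 109.8 against 119.5 CPM (-0.12), were close to Ctrl. Sdha, the flavoprotein that oxidises succinate, had 101 CPM in knockout and 95.9 CPM in Ctrl cells (0.08, interval of the ratio 0.06 to 0.10). The catalytic pair Sdha and Sdhb therefore lay on opposite sides of 0.

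All 8 nuclear genes of complex III were below 0, with the lowest median of the multi-gene complexes, -0.40. Uqcrq, a small subunit near the ubiquinone site, had 116 CPM in knockout and 185 CPM in Ctrl cells (-0.66). Uqcrb, likewise a ubiquinone-binding subunit, had 305 against 434 CPM (-0.51), and Uqcrh, the hinge protein through which cytochrome c docks, had 461 against 564 CPM (-0.29). Cycs, cytochrome c itself, had 174 CPM in knockout and 266 CPM in Ctrl cells (-0.60). Its ratio was as low after the adjustment for length, since other genes of its length were near 0. That length is of the longest coding transcript of Cycs, and which form was captured is not known.

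Complex IV, cytochrome c oxidase, had a median of -0.37 over 14 measured nuclear genes, all below 0. Ndufa4 had 882 CPM in knockout and 952 CPM in Ctrl cells (-0.11), and Cox8a, a small subunit of the common form, had 519 against 743 CPM (-0.52). The genes furthest from Ctrl were isoforms. Cox7a1, the heart and muscle form of subunit VIIa, had 1.87 CPM in knockout and 12.9 CPM in Ctrl cells (-2.28), and Cox4i2, the form of subunit IV known for its response to low oxygen, had 5.54 against 11.2 CPM (-0.90).

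All 17 nuclear genes of complex V were below 0, with a median of -0.30. Atp5g2, 1 of 3 genes for the c subunit of the rotor ring, had 811 CPM in knockout and 918 CPM in Ctrl cells (-0.18), and Atp5b, the catalytic beta subunit, had 506 against 699 CPM (-0.47). The lowest ratio belonged to Atp5k, the membrane subunit e that links synthase dimers, with 135 CPM in knockout and 234 CPM in Ctrl cells (-0.79). The small membrane proteolipid Atp5mpl, with 269 CPM in knockout against 410 CPM in Ctrl cells (-0.61), and Atp5e, the epsilon subunit of the central stalk, with 294 against 445 CPM (-0.59), came next. Cox7a2l, outside the complexes, had 323 CPM in knockout and 371 CPM in Ctrl cells (-0.20). Small subunits were not all low, since the genes of the c subunit, also a small protein, were nearer to Ctrl. Beside Atp5g2, Atp5g1 had a ratio of -0.15 and Atp5g3 one of -0.07. After subtraction of length neighbours the complex V median was -0.13 and its lowest value -0.54, and 0 of 17 genes were at least 1.5-fold lower. Whether subunit size matters beyond transcript length was not tested. The 17 measured genes with an NRF1 match in their promoter had a median of -0.24 and the 51 with a window but no match one of -0.35, and Atp5k and Sdha are both among the matches.

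**Figure D2:**
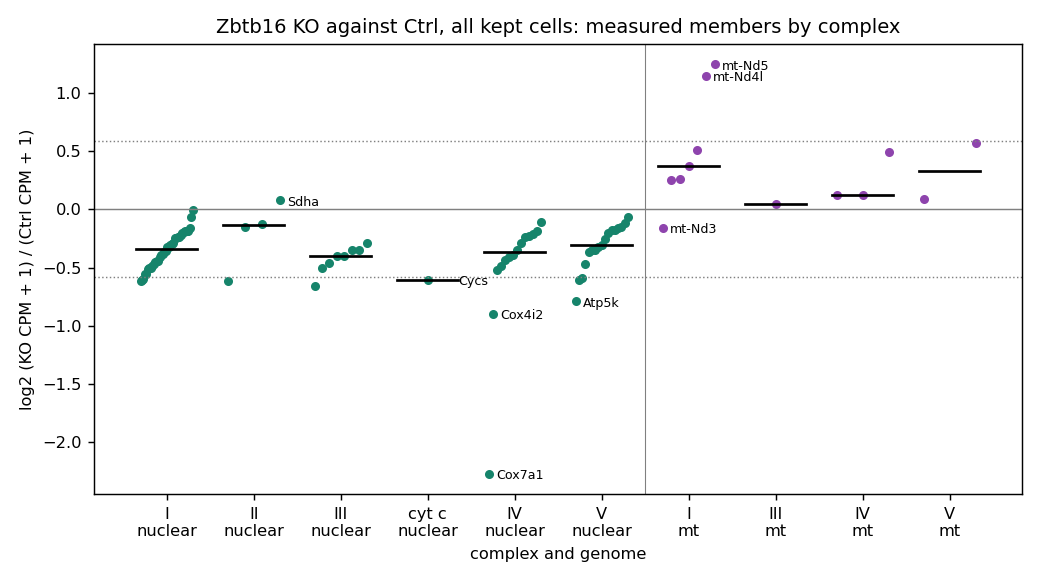
Log2 ratios of knockout to Ctrl in all kept cells for the measured genes of each complex, nuclear genes to the left and mt- genes to the right of the vertical line; short bars are medians and dotted lines mark 1.5-fold. Nuclear medians lie between -0.60 for the single gene Cycs and -0.14 for complex II, and mt- medians between 0.04 and 0.37.

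The 13 mitochondrially encoded genes had a median ratio of 0.26, and 12 of 13 lay above 0. At least 1.5-fold higher were 2 of 13, against 12.3% of all measured genes. Both encode membrane subunits of complex I: mt-Nd5, with 610.4 CPM in knockout and 257 CPM in Ctrl cells (1.25), and mt-Nd4l, with 359.8 against 162 CPM (1.15). The complex IV core subunit mt-Co3, the mt- gene with the most UMIs, followed at a distance with 13309 CPM in knockout and 9479 CPM in Ctrl cells (0.49). The other complex I genes spread widely, from mt-Nd6 with 49.8 against 34.5 CPM (0.51) and mt-Nd1 with 3892 against 3012 CPM (0.37) through mt-Nd2 (0.26) and mt-Nd4 with 4373 against 3672 CPM (0.25) to mt-Nd3 with 713 CPM in knockout against 796 CPM in Ctrl cells (-0.16). mt-Nd3 was the only mt- gene below Ctrl.

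The mt- genes that encode the catalytic centre of complex IV were nearly level, with ratios of 0.12 for mt-Co1 and 0.13 for mt-Co2, as were mt-Cytb, the cytochrome b of complex III (0.04), and mt-Atp6, the proton channel subunit of complex V (0.09). mt-Atp8, its small partner, had 14.4 CPM in knockout and 9.35 CPM in Ctrl cells (0.57). These genes are cut from long shared precursors, yet their ratios differed. As a share of mt- UMIs, which a change of the whole set cannot alter, mt-Nd5 took 1.22% in knockout and 0.608% in Ctrl cells, and mt-Nd4l 0.720% against 0.383%. Between the 10th and 90th percentile of cells the mt-Nd5 share ran from 0.714% to 1.87% in knockout and from 0.309% to 0.934% in Ctrl cells, so the shift is one of most cells, with some overlap.

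The mitochondrial genes lie close together, which bears on how UMIs are assigned. In the GENCODE annotation of assembly GRCm38, mt-Nd4l (chrM:9877-10173) shares 7 bases with mt-Nd4 (chrM:10167-11544), mt-Atp8 (chrM:7766-7969) shares 43 bases with mt-Atp6, and mt-Nd5 (chrM:11742-13565) shares 14 bases with mt-Nd6 (chrM:13552-14070), which lies on the other strand. The sources used here do not say whether counting used strand. For that reason mt-Nd6 UMIs cannot be told apart from antisense transcripts of its neighbour. The neighbours mt-Nd4 and mt-Nd4l, read from 1 transcript, differed in ratio by far more than the interval of either, which is 0.25 to 0.26 for mt-Nd4 and 1.14 to 1.17 for mt-Nd4l.

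The contrast of nuclear and mitochondrial genes was also present in cells without the cardiomyocyte marker Actc1 and in cells with endothelial or endoderm markers. In cells with 0 Actc1 UMIs, 9202 in the knockout and 4016 in Ctrl, the nuclear median was -0.34 with 79 of 81 genes below 0, and the mt- median was 0.25. At least 1.5-fold lower were 8 of 81 nuclear genes, against 5.00% of all measured genes, whose median was 0.02. Ctrl cells without Actc1 were not free of cardiomyocyte RNA, since the 10 markers still summed to 168 CPM in knockout and 996 CPM in Ctrl cells of this set. In cells with endothelial markers (at least 4 of 8 detected at equal depth; 408 knockout and 277 Ctrl cells) the nuclear median was -0.33 and the mt- median 0.24, with 8 of 79 nuclear genes at least 1.5-fold lower against 5.31% of all measured genes, whose median was 0.02. In cells with endoderm markers (95 knockout and 76 Ctrl cells) the nuclear median was -0.22 and the mt- median 0.44, with 5 of 81 nuclear genes at least 1.5-fold lower against 6.64% of all measured genes, whose median was 0.08. In cells with pluripotency markers (195 knockout and 21 Ctrl cells) the nuclear median was -0.29, with 7 of 81 lower against 4.94% of all measured genes, whose median was 0.15, and the mt- median stood near 0, at 0.02. These sets were not free of cardiomyocyte RNA either: the 10 markers summed to 29.8 CPM in knockout and 493 CPM in Ctrl cells of the endothelial set, to 111 against 618 CPM in the endoderm set and to 54.8 against 86.6 CPM in the pluripotency set. Actc1 was detected in 8 knockout and 55 Ctrl cells of the endothelial set and in 0 knockout and 24 Ctrl cells of the endoderm set. The part of these UMIs in the ratios, and whether these sets of cells differ from each other, was not tested. After subtraction of length neighbours the nuclear median was -0.13 in cells without Actc1, with 63 of 81 genes below 0. It was -0.12 in endothelial (57 of 79 below 0), -0.09 in endoderm (50 of 81) and -0.14 in pluripotency marker cells (65 of 81). The length neighbours themselves had medians of -0.23, -0.23, -0.17 and -0.20 in the same order. At least 1.5-fold lower after subtraction were 3 of 81, 3 of 79, 1 of 81 and 4 of 81 nuclear genes, again in this order. Shares of like-length genes, and of all genes after subtraction, are not given for these sets. The counts of lower genes are therefore not read as an excess.

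Some single genes had like ratios in these sets. Atp5k had a ratio of -0.80 in endothelial, -0.69 in endoderm and -0.69 in pluripotency marker cells, mt-Nd5 had 1.37, 1.24 and 1.17, and mt-Nd4l had 1.29, 1.31 and 0.95. Uqcrq varied more, with -0.28 in endothelial marker cells and 0.02 in endoderm marker cells, where it had 190.3 CPM in knockout and 188 CPM in Ctrl. Sdha had 0.10, -0.13 and 0.50. The RNA outside cells, read from barcodes of 10 to 100 UMIs, showed the nuclear difference too, with 1.77% of UMIs from nuclear genes of the pathway in the knockout and 2.18% in Ctrl and a median ratio of -0.31. Its mt- median was -0.13, yet mt-Nd5 (0.84) and mt-Nd4l (1.03) were higher in the knockout there as well. What this free RNA contributes to the values of cells was not tested.

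**Figure D3:**
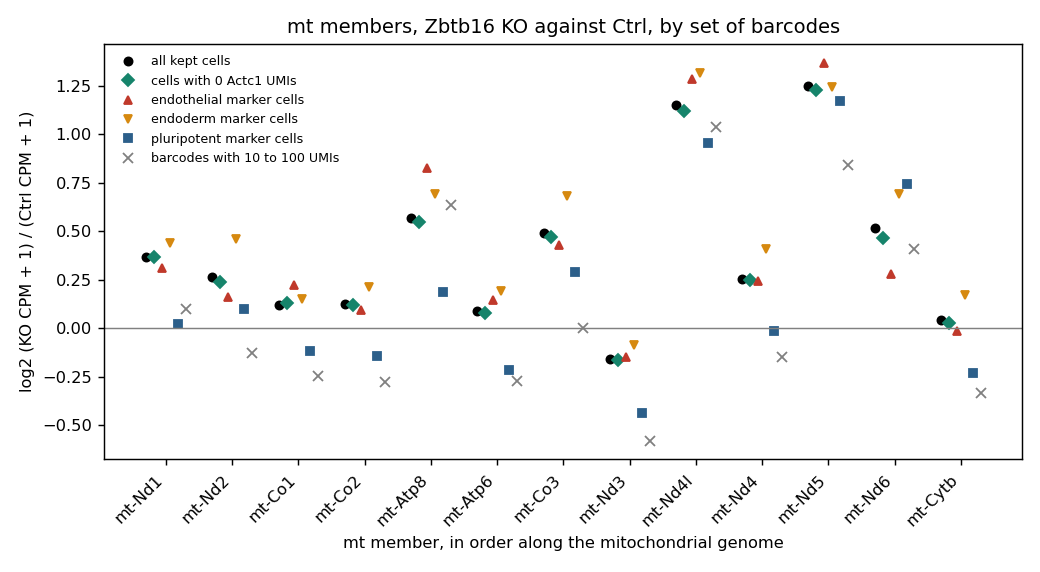
Log2 ratio of knockout to Ctrl for each mt- gene, in order along the mitochondrial genome, in 6 sets of barcodes drawn as separate symbols. mt-Nd4l and mt-Nd5 lie between 0.84 and 1.37 in these 6 sets, while mt-Cytb, mt-Atp6 and mt-Co2 lie near or below 0 in several.

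Within the Ctrl library, Actc1, the cardiac actin, was used to order cells towards the cardiomyocyte. The nuclear genes of the pathway took 2.36% of UMIs in the 4016 cells with 0 Actc1 UMIs, 2.35% in the 1356 cells under 100 CPM, 2.39% in the 308 cells from 100 to under 300 CPM, 2.46% in the 318 cells from 300 to under 1000 CPM, and 2.61% in the 356 cells at 1000 CPM or more. The share was level up to the middle bins and higher only in the top ones. The mt- share went the other way at first, with 4.26%, 4.13% and 4.03% in the 3 lowest bins, then 4.17% and 4.46%. In the knockout library, whose bins hold 9202, 173, 34, 26 and 14 cells, the nuclear share was 1.90%, 1.91%, 1.92%, 1.78% and 1.86%, below Ctrl in every bin, and no order along Actc1 was seen. The mt- share of knockout cells was 5.02%, 4.66%, 4.37%, 4.08% and 4.29%, so that it lay above Ctrl in the 3 lowest bins and below it in the 2 highest. These are shares of summed UMIs. The cell medians in the bin from 300 to under 1000 CPM were 4.33% in knockout and 4.29% in Ctrl cells, so the order there depends on the measure.

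**Figure D4:**
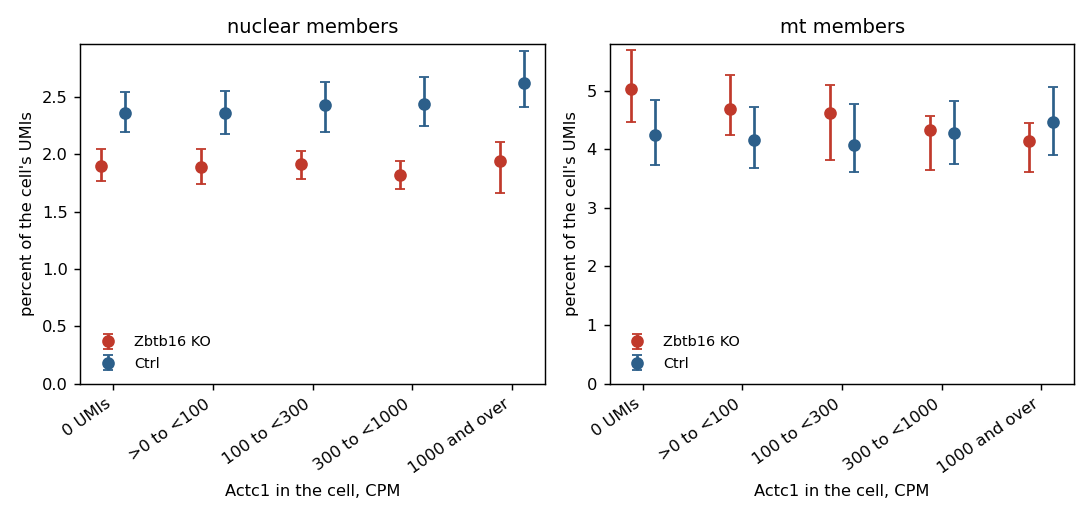
Median share of each cell's UMIs from nuclear (left) and mt- (right) genes of the pathway, in percent, by Actc1 level in the cell; bars span the quartiles of cells, knockout left of Ctrl. Nuclear shares of knockout cells lie below those of Ctrl cells in all 5 bins, and mt- shares of the libraries meet in the upper bins.

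Between the 356 Ctrl cells highest in Actc1 and the 4016 without it, nuclear ratios (log2, Actc1-high over without) had a median of 0.15 over 82 measured genes, with 73 above 0, against a median of -0.05 over all measured genes. Medians were 0.09 in complex I, 0.13 in complex II, 0.23 in complex III, 0.14 in complex IV and 0.18 in complex V. Length neighbours had a median of -0.02 here, so length adds little. At least 1.5-fold higher were 2 of 82 and lower 0, against 7.16% higher and 8.48% lower among all measured genes. Most of the 82 thus differed by small amounts in 1 direction. Of the 82, 22 were higher at each step from bin to bin and 70 were highest in the top bin. The share of all measured genes that do so was not counted, so these counts are not read as particular to the set. The mt- median was 0.03, with 8 of 13 genes above 0 and values between -0.44 for mt-Nd6 and 0.16 for mt-Co1.

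Apart from isoforms, Cycs was the gene highest over its level in cells without Actc1, with 326 CPM in Actc1-high cells and 257 CPM in cells without Actc1 (0.34), and Ndufa6, an accessory subunit of complex I, was next with 268 against 214 CPM (0.32). Lowest were Cox6b2, a form of subunit VIb known from testis, with 33.2 CPM in Actc1-high cells against 47.4 CPM in cells without Actc1 (-0.50), Cox4i2 with 9.44 against 11.5 CPM (-0.26), and the complex I accessory subunits Ndufa5 with 149 against 177 CPM (-0.24) and Ndufa8 with 120.4 against 130.03 CPM (-0.11). Depth and RNA quality moved with Actc1: the Actc1-high cells had a median of 28480 UMIs against 37003 in those without, Malat1, a nuclear RNA, had 7027 CPM in Actc1-high cells against 4833 CPM in those without, and Fos, an early stress response gene, 84.1 against 39.2 CPM. Their part in these ratios was not tested.

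The clearest pattern along Actc1 was that of the muscle isoforms of complex IV. Cox6a2, the heart and muscle form of subunit VIa, had 30.1 CPM in Actc1-high Ctrl cells and 1.48 CPM in those without Actc1 (3.65), and Cox7a1 had 55.0 against 8.46 CPM (2.56). These 2 were the genes at least 1.5-fold higher. As a share of Cox6a2 and Cox6a1 UMIs together, Cox6a2 took 0.695%, 1.24%, 3.73%, 5.86% and 12.4% (interval 11.2% to 13.6%) in the 5 Ctrl bins from low to high Actc1. The share of Cox7a1 in Cox7a1 and Cox7a2 was 1.86%, 2.49%, 4.42%, 5.37% and 9.15% (interval 8.50% to 9.83%) in the same bins. Even in the top bin the common forms Cox6a1 and Cox7a2 held most of the UMIs of each pair.

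In the knockout library Cox6a2 was nearly absent and Cox7a1 was below Ctrl. Cox6a2 had 27 UMIs in all knockout cells and 1104 in all Ctrl cells, or 0.08 against 3.77 CPM. Its share of the pair in cells without Actc1 was 0.0364% in the knockout against 0.695% in Ctrl, and the 14 knockout cells highest in Actc1 had 0 Cox6a2 of 97 UMIs of the pair, which bounds the share at 3.09% by the floor of 3 counts and at 3.73% by the exact interval. Cox7a1 took 0.552% of its pair in knockout cells without Actc1 and 1.18% in the 14 highest (interval 0.244% to 3.41%), against 1.86% and 9.15% in the same bins of Ctrl cells. Its level was 1.04 CPM in knockout and 6.54 CPM in Ctrl cells with endothelial markers, and 10.9 against 14.4 CPM in cells with endoderm markers. In barcodes of 10 to 100 UMIs it was 2.41 CPM in the knockout and 14.2 CPM in Ctrl, so free RNA was also higher in Ctrl. The third muscle isoform of mouse complex IV, Cox8b, had 0 UMIs in knockout and 2 in Ctrl cells, and its level cannot be read at this depth.

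The other isoform pairs did not follow Actc1 upward. The share of Cox6b2 in Cox6b2 and Cox6b1 was 7.97%, 7.62%, 7.46%, 6.29% and 5.37% in the 5 Ctrl bins from low to high, and the share of Cox4i2 in Cox4i2 and Cox4i1 was 1.85%, 1.89%, 1.44%, 1.38% and 1.39%. In cells without Actc1, Cox4i2 took 1.06% of its pair in knockout against 1.85% in Ctrl cells. Cox7b2, Cox8c and Ndufa4l2 stayed under 1 CPM in both libraries.

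**Figure D5:**
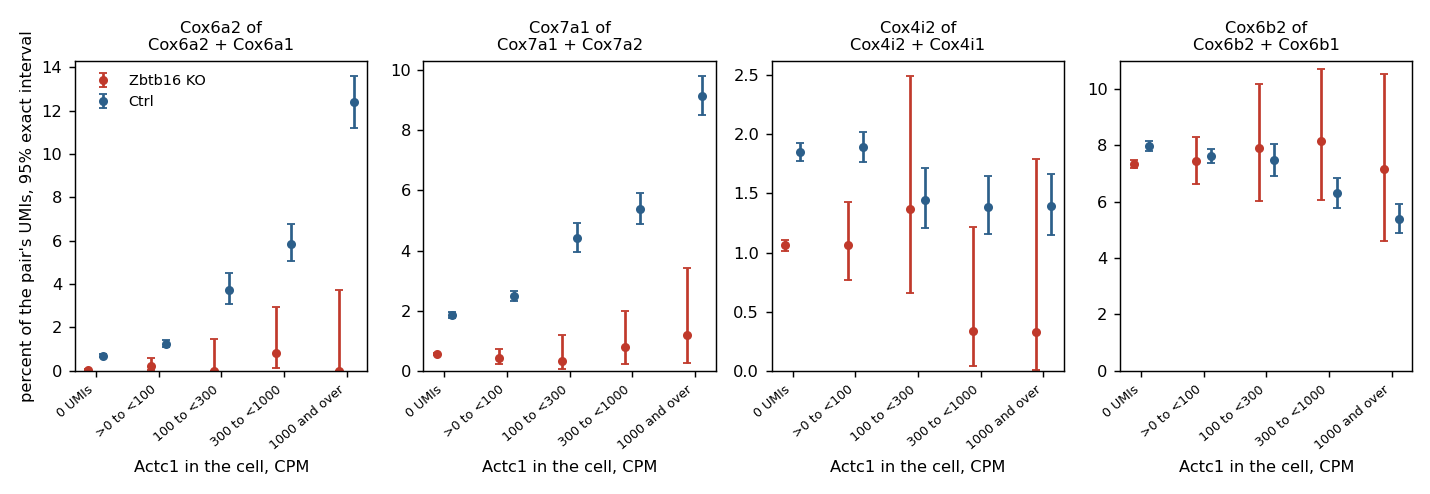
Share of an isoform in the summed UMIs of its pair, in percent with 95% exact intervals for counting error, by Actc1 level in the cell, knockout left of Ctrl in each bin. Cox6a2 and Cox7a1 shares in Ctrl cells reach 12.4% and 9.15% in the top bin, and Cox4i2 and Cox6b2 shares do not climb.

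Genes that serve the pathway without being subunits were counted from lists of known members, with the background shares of all measured genes given above for the same contrast. Of 42 measured assembly factors the median ratio of knockout to Ctrl was -0.15, with 3 at least 1.5-fold lower and 0 higher. Those included Cox17, a copper chaperone of complex IV, with 65.5 CPM in knockout and 119 CPM in Ctrl cells (-0.85), and Cox20, a chaperone of the mt-Co2 protein, with 12.1 against 24.9 CPM (-0.98). Of 13 citrate cycle genes none passed 1.5-fold and the median was -0.16. The 78 genes of the mitochondrial ribosome had a median of -0.22, with 1 lower, and the cytosolic ribosomal protein genes, also short, made up 15.4% of knockout and 17.7% of Ctrl UMIs. After subtraction of length neighbours the medians were -0.03 for assembly factors, -0.14 for citrate cycle genes and -0.08 for the mitochondrial ribosome, beside -0.14 for the nuclear subunits. Then 2 assembly factors, Cox17 and Cox20, and no ribosome gene were still at least 1.5-fold lower. Whether the subunits differ from these lists was not tested.

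Of 15 genes that replicate, transcribe, stabilise or translate mitochondrial DNA and RNA, the median was -0.02. After subtraction of length neighbours it was -0.08, with 1 of 15 still at least 1.5-fold higher. The exception was Lrpprc, whose protein binds and stabilises mitochondrial mRNAs, with 66.9 CPM in knockout and 22.3 CPM in Ctrl cells (1.54), the only 1 of 15 at least 1.5-fold higher. Its binding partner Slirp had 97.4 against 107 CPM (-0.14), Polg, the polymerase of mitochondrial DNA, 78.1 against 55.7 CPM (0.48), and Tfam, which packages that DNA, 73.3 against 72.2 CPM (0.02). Of 7 measured regulators of 12, 1 was at least 1.5-fold higher: Gabpa, the DNA-binding subunit of GABP, with 33.4 CPM in knockout and 18.9 CPM in Ctrl cells (0.79). After subtraction of length neighbours Gabpa stood at 0.57, under 1.5-fold, and the median of the 7 was -0.07 in place of 0.12. Nrf1 had 35.3 against 36.9 CPM (-0.06). Ppargc1a, the coactivator known for driving mitochondrial gene programmes in heart and muscle, was under the filter, with 0.12 CPM in knockout and 4.56 CPM in Ctrl cells.

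Among carriers and porins, 1 of 7 measured genes was lower, Slc25a5, an ADP/ATP carrier, with 129 CPM in knockout and 222 CPM in Ctrl cells (-0.78), beside the heart form Slc25a4 with 713 against 755 CPM (-0.08). After subtraction of length neighbours Slc25a5 stood at -0.56, under 1.5-fold. Of 12 measured genes of fatty acid oxidation 1 was lower, Cpt1b, the muscle form of the enzyme that admits fatty acids to mitochondria, with 2.88 against 7.72 CPM (-1.17). Hadha, a subunit of the trifunctional protein, had 106 CPM in knockout and 70.4 CPM in Ctrl cells (0.58).

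Along Actc1 in Ctrl, the 9 measured regulators had a median of -0.16, with 2 at least 1.5-fold higher and 1 lower. The higher ones were Ppargc1a and Esrrg, and the lower one was Pprc1, a coactivator related to Ppargc1a, with 10.7 CPM in Actc1-high cells and 18.3 CPM in those without Actc1 (-0.73). Ppargc1a had 34.1 CPM in Actc1-high cells and 1.57 CPM in those without Actc1 (3.77), and Esrrg, an orphan nuclear receptor of oxidative tissues, had 10.7 against 1.99 CPM (1.96). Fatty acid genes had a median of 0.17 over 14 measured, with 3 at least 1.5-fold higher and 0 lower, among them Fabp3, the heart fatty acid binding protein, with 96.6 against 18.8 CPM (2.30), and Cpt1b with 22.8 against 5.92 CPM (1.78). Slc25a4 had 945 CPM in Actc1-high cells against 735 CPM in those without (0.36). The genes of mitochondrial DNA and RNA had a median of -0.10, with Polg at 29.8 against 61.7 CPM (-1.02) as the 1 of 15 lower, and the mitochondrial ribosome had one of -0.08 with 1 of 78 lower.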

How the data were processed

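Both samples are day 6 cultures of D3 mouse embryonic stem cells, 1 Zbtb16 knockout and 1 Ctrl, prepared with the DNBelab C Series droplet kit of MGI and sequenced on DNBSEQ, per the labels' protocols. The authors deposited unfiltered matrices of raw UMI counts per gene and barcode, written by Cell Ranger 4 per the file headers. The tools named are Cell Ranger and R 4.1.1 and the builds GRCm39 and mm39, per the submitters' processing notes. Strand use, treatment of reads that match several places (relevant to members with processed pseudogenes) and how the kit's barcodes were converted are not stated in these sources.

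Kept barcodes held 343037265 of 357324373 UMIs in the knockout and 292541318 of 308465930 in Ctrl. A further 94 knockout and 40 Ctrl barcodes had 13500 to under 15000 UMIs. No doublet caller was run and no doublets were removed. Counts were summed per library or set of cells (Python 3.11.15, numpy 2.4.6, pandas 2.3.3, scipy 1.17.1) and scaled to CPM over all features. Ratios carry a prior of 1 CPM, while their exact 95% conditional binomial intervals have none. Lengths and mitochondrial positions came from the longest coding transcript in GENCODE M21 on GRCm38, for 99.97% of measured genes. Free RNA was read from barcodes of 10 to 100 UMIs. For marker sets each cell was thinned to 15000 UMIs. The method was tested on simulated data. Alternatives covered cell limits, scaling (edgeR 4.0.16 TMM), cell weighting, prior, filter, thinned Actc1 level and the length neighbours.

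Members and lists were chosen with earlier results of these data known. Named genes are, per complex, the 2 highest in mean CPM and the 2 largest ratios, the 4 nuclear genes at either end along Actc1, all mt- genes, the isoform pairs, and for lists up to 4 by mean CPM and 2 by ratio. Sdha, Ndufs1, Atp5e, Ndufb2, mt-Nd5 across sets of cells and a few list genes outside that rule (Ppargc1a, Esrrg, Fabp3, Pprc1) were named after their values were seen.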

Additional observations from a re-analysis of the deposited data

Results flagged for a closer look

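In cells with endothelial and in cells with endoderm markers, 4 genes had knockout to Ctrl ratios on opposite sides of 0, beyond counting error. Each set is 1 library a group, so the difference was not tested. The share of all measured genes that do the same was not counted, so the 4 are not read as a trait of this pathway. The differences (endothelial minus endoderm, log2) were -0.48 for Cox6a1, 0.45 for Cox7a2l, 0.23 for Atp5a1 and -0.19 for mt-Cytb. Cox6a1 had -0.28 in endothelial and 0.20 in endoderm marker cells, Cox7a2l had 0.22 and -0.23, and Atp5a1 had 0.09 and -0.14. In endothelial marker cells mt-Cytb was close to 0, at -0.015 (interval -0.028 to -0.0015), and in endoderm marker cells it had 0.17.

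Barcodes of 10 to 100 UMIs, which no comparison of cells used, also held mt- UMIs: 8.81% in the knockout and 9.80% in Ctrl, above the 5.00% and 4.22% of the kept cells.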

How the results depend on the processing

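No paired analysis was possible because the knockout and Ctrl are 1 library each, with no test run. A value counts as moved here when it left its counting interval, which is narrow. Nuclear and mt- medians of knockout over Ctrl kept their direction under the alternatives run. With at least 25000 UMIs the mt- median was 0.25 in all cells, 0.23 in cells without Actc1 and 0.00 (0.0020) in Actc1-high over Actc1-free Ctrl cells. With at most 5% mt- UMIs, which kept 4645 knockout and 5088 Ctrl cells, these were 0.15, 0.13 and -0.026, the last with its sign turned. The mt- median along Actc1 thus stayed near 0 under these limits, and its sign rests on the mt- limit. Scaling without mt- features gave mt- medians of 0.27 in all cells and 0.26 in cells without Actc1. TMM scaling, which shifts all genes by 0.02 and 0.04, gave nuclear medians of -0.33 and -0.30 and mt- medians of 0.28 and 0.28. Equal weight per cell gave an mt- median of 0.25. The nuclear median minus that of length neighbours was -0.32 with no filter, -0.18 with neighbours of at least 50 CPM, and -0.18 with neighbours in length and GC content, the last chosen after seeing the data. In cells without Actc1 the nuclear median was -0.32 with no filter, and the mt- median was 0.26 with the Actc1 level read after thinning. With 0 UMIs of all 10 cardiomyocyte markers, which left 1068 knockout and 19 Ctrl cells, these were -0.31 and 0.25. The Cox6a2 ratio turned from -1.22 to 0.17, but its interval began at -6.34 and had no upper limit, so its direction cannot be read there. The complex II median turned from -0.13 to 0.02. A filter of 20 CPM left 1 gene, not 2, at least 1.5-fold higher along Actc1, since Cox6a2 is under it. The other causes were not tested. Of the 150 other values, 18 changed sign under an alternative, 1 of which was at least 1.5-fold. Depth limits Cox6a2, Cox8b and the upper Actc1 bins of the knockout.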
